A study of Mus musculus with 6 samples.

Results

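The collagen chain genes were taken as the protein-coding rows of the deposited table whose symbol has the form of a collagen alpha chain, leaving out Col17a1 and Col7a1. They numbered 42 of 54532 genes. Of these, 38 had enough counts to be tested among 17318 genes in all. The RNA came from ear skin of mice aged 3 months, in 3 Ufl1 cKO and 3 control libraries. The cKO mice were Ufl1f/f with KRT14Cre/+, and the controls were Ufl1f/+ or Ufl1f/f with no Cre given, so every mouse carried a floxed allele of Ufl1. The protein made from Ufl1 is an E3 ligase of the UFM1 pathway, which modifies proteins at the endoplasmic reticulum. The keratin 14 promoter that drives Cre is active in basal keratinocytes and their descendants, while most fibrillar collagen of skin is made by dermal fibroblasts, which the Cre does not target. With no Cre given for the controls, effects of Cre and of the loss of Ufl1 cannot be told apart. Whether each library was made from an animal of its own is not given, and the p-values then cover only differences among these samples, which may be technical. Libraries are called cKO 1 to 3 and controls 1 to 3.

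Collagens are secreted proteins in which 3 alpha chains wind around each other in the endoplasmic reticulum, where the chains are hydroxylated and then exported as procollagen. Fibrillar collagens form the fibres that give dermis its strength, type VI collagen forms beaded filaments around cells, and type IV collagen forms the sheet of the basement membrane under epithelia and around vessels. Types II, IX, X and XI are the collagens of cartilage, of which the ear holds an elastic plate. The chains were placed in 8 classes by structure and tissue, and each chain was counted in 1 class.

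Total counts ranged from 17256339 to 20776539 per library. Levels are given as CPM, which are counts scaled to library size with factors from the trimmed mean of M values (TMM), and levels of different genes are compared as FPKM, per kilobase of gene length. Ufl1 was at 34.8, 35.6 and 38.7 CPM in cKO 1 to 3, against 57.8, 46.9 and 46.0 CPM in controls 1 to 3. Every cKO library lay below every control, with a log2 fold change of -0.47 (SE 0.14) and an edgeR adjusted p of 0.778. Control 2 stood apart from the other libraries at one end of the first principal component (36.9% of the variance). Control 1 had 4.59% of its counts on mitochondrial genes, where the other libraries had 2.28% to 2.97%. Control 2 was the highest of the 6 libraries for 4 of 9 keratinocyte markers (27.1% of all genes). It was the lowest for 10 of 10 fibroblast markers (26.9% of all genes). All tested genes of both lists were detected in every library. The summed level of the fibroblast markers was 7610.1, 9028 and 6573 CPM in cKO 1 to 3, against 10591, 5131 and 9834 CPM in controls 1 to 3. That of the keratinocyte markers was 17043, 12747 and 15631 CPM in cKO 1 to 3, against 9215, 18551 and 11559.8 CPM in controls 1 to 3. Whole ear skin was sequenced, so fewer cells of a type and less RNA per cell cannot be told apart, and the part of these differences in the results on collagen was not tested. Values are therefore also given without control 2 beside many results.

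None of the 38 chain genes was called higher or lower in the cKO by the quasi-likelihood test of edgeR at an adjusted p under 0.05, where 3 of all genes (0.0173%) were called. DESeq2 (0.526% of genes) and limma-voom (0% of genes) also called 0 chains. As given in the authors' deposited table, 0 chains had an adjusted p under 0.05 (0.277% of all genes with a value) and 5 of 42 a p under 0.05 (11.9%, against 3.82% of all genes with a value). They were Col1a1, Col6a3, Col12a1 and Col6a5, higher in the cKO, and Col4a6, lower. Col6a5 had only 2 to 38 reads per library and was not tested here. At an unadjusted p under 0.05 edgeR gave 1 chain, Col6a3, or 2.63% of the chains tested, against 5.33% of all genes. DESeq2 gave 2 (5.85% of all genes) and limma-voom gave 2 (5.14% of all genes). The edgeR count was 0 without cKO 2, cKO 3 or control 2 (6.9% of all genes in the last case), and 9 of 40 chains without control 1 (22.5%, against 10.5% of all genes). Those 9 were Col1a1, Col1a2, Col2a1, Col3a1, Col5a2, Col6a3, Col14a1 and Col15a1, higher in the cKO, and Col4a6, lower, with edgeR adjusted p-values of 0.377 or more. The log2 fold change was above 0 for 25 of the 38 chains (65.8%), against 47.8% of all genes tested, with a median of 0.14 beside -0.01 over all genes. Without control 2 it was above 0 for 18 of 39 chains (46.2%), Col6a5 among them, against 49.7% of all genes. Over the 38 chains alone it was then above 0 for 17, with a median of -0.01. For 6 chains, all higher in the cKO, no cKO library fell within the range of the controls or below it. These 6 are 15.8% of the chains, next to 10.5% of all genes without overlap in either direction and 5.73% in the higher direction. They were Col1a1, Col5a1, Col6a1, Col6a2, Col6a3 and Col15a1. Without control 1 the number was 12 (31.6% of the chains, against 28.8% of all genes).

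In the sum over all tested chains, which is mostly fibrillar, the 3 cKO libraries were close to each other and the controls were spread widely. This did not hold in every class. The SD of the summed level was 132 CPM in the cKO and 86.0 CPM in controls for the basement membrane chains. For the cartilage chains it was 253 CPM in the cKO and 194 CPM in controls. The summed level of all tested chains was 24865, 24801 and 22725 CPM in cKO 1 to 3, against 25685, 11995 and 17743 CPM in controls 1 to 3. Control 1 lay above all cKO libraries, and controls 2 and 3 lay below them. Control 2 was the lowest library for 22 of the 38 chains (26.9% of all genes), control 1 the highest for 10 (23.8% of all genes) and cKO 1 the highest for 11 (13.8% of all genes).

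**Figure D1:**
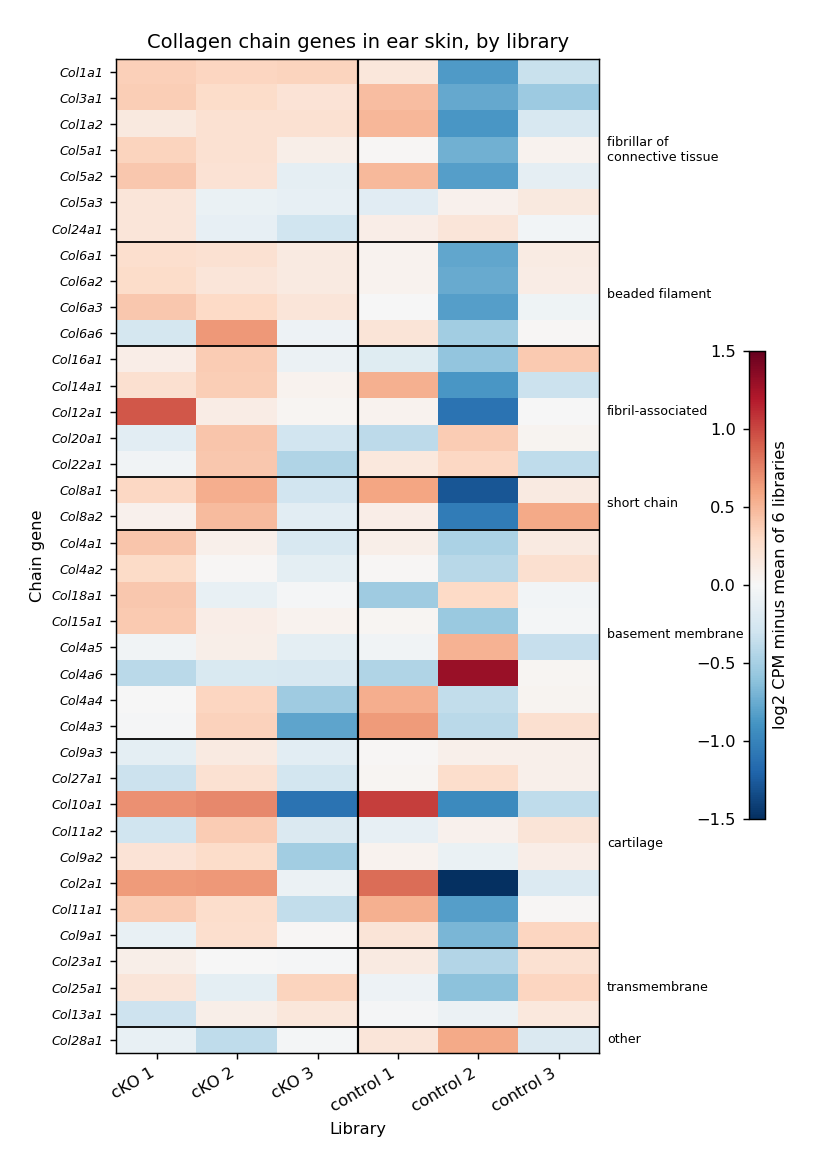
Heat map of the 38 tested chain genes (one line each, grouped by class) in the 3 Ufl1 cKO and 3 control libraries, as log2 CPM minus the mean of the 6 libraries. The control 2 column is low for the fibrillar chains other than Col5a3 and Col24a1 and for the beaded filament and short chain classes. It is high for Col4a6, and colours saturate at 1.5 in either direction.

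The fibrillar chains of connective tissue held the most abundant collagen transcripts. Col3a1, the chain of type III collagen, and Col1a2 and Col1a1, the chains of type I collagen, ranked 6, 9 and 11 among all genes by mean count. Per length, the mean over all 6 libraries was 684 FPKM for Col1a1, 501 FPKM for Col3a1 and 382 FPKM for Col1a2. The next fibrillar chain was Col5a1 at 48.8 FPKM, the type V chain that takes part in starting fibrils.

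Col1a1 (ENSMUSG00000001506, chromosome 11, 94936224 to 94953042, mm10) was at 5531, 5411 and 5445 CPM in cKO 1 to 3, against 4877, 2390.0 and 3429 CPM in controls 1 to 3. All cKO libraries were above all controls, with control 1 the nearest. The means were 5462 ± 61.5 CPM in the cKO and 3565 ± 1249 CPM in controls (SD, n = 3 each), and the log2 fold change was 0.62 (SE 0.29), or 1.53-fold. In edgeR p was 0.0679, or 0.949 after adjustment, and p was 0.1 in a two-sided exact permutation test, which cannot go lower with 3 libraries a group. Without control 2 the log2 fold change was 0.40, and without control 1 it was 0.90.

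Col1a2 (ENSMUSG00000029661, chromosome 6, 4504814 to 4541544) was at 5071, 5371 and 5351 CPM in cKO 1 to 3, against 6457, 2501 and 3854 CPM in controls 1 to 3. Control 1 was above every cKO library and the other 2 controls were below. Its log2 fold change was 0.30 (SE 0.35), with an edgeR adjusted p of 0.997. It was 0.03 without control 2 and 0.72 without control 1. Col3a1 (ENSMUSG00000026043, chromosome 1, 45311538 to 45349706) was at 6076, 5699 and 5439 CPM in cKO 1 to 3, against 6497, 2758 and 3223 CPM in controls 1 to 3. Its controls had the same order, control 1 above every cKO library and control 2 at the bottom. The log2 fold change of Col3a1 was 0.46 (SE 0.35), 0.24 without control 2 and 0.94 without control 1.

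The promoters of the pair are shown because the genes carried the same order of controls and yet differ in their promoter letters. Both are RefSeq sequences on GRCm38.p6, from 250 bases before to 50 after the RefSeq start, 5′ to 3′ on the plus strand. Capitals mark CCAAT or TATAAA on either strand. The Col1a2 window lies inside the deposited gene body (4504814 to 4541544), so its RefSeq start is downstream of the deposited one.
Col1a2, chr6:4505368-4505667: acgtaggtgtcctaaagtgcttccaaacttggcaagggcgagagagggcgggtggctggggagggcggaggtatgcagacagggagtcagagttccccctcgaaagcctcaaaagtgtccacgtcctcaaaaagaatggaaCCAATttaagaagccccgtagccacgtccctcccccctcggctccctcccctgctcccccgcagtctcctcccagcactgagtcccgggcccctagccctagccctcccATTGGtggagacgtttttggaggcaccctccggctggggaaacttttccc
Col3a1, chr1:45311288-45311587: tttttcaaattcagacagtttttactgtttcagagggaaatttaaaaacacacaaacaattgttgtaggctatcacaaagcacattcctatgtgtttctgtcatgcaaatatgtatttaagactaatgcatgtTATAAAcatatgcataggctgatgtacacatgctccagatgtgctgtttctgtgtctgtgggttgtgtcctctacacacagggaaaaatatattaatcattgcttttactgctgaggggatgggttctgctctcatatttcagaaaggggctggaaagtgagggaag
Col1a2 holds CCAAT on both strands and no TATAAA, and Col3a1 holds TATAAA and no CCAAT. RefSeq promoters were matched by symbol for 33 of the 42 chains. CCAAT on either strand was present for 11 of these (33.3%), beside 37.4% of 32851 promoters, TATAAA for 4 (12.1%, beside 13.6%), and GGGCGG for 21 (63.6%, beside 35.7%). A chain was counted if any of its promoters held the motif, and Col18a1, Col6a2 and Col9a1 had 2 each. The 32851 promoters were counted singly, so the 2 shares are not of the same unit. No motif of the 3 contains another, both strands were searched, and a match is a description of the sequence only.

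The type V chains are minor partners in the same fibrils. Col5a1 was at 511, 477 and 433 CPM in cKO 1 to 3, against 411, 247 and 422 CPM in controls 1 to 3. The cKO libraries lay above the controls, by a narrow gap to control 3, with a log2 fold change of 0.40 (SE 0.22) and 0.19 without control 2. Col5a2 was at 475, 416 and 325 CPM in cKO 1 to 3, against 502, 201 and 327 CPM in controls 1 to 3. Here control 1 was the highest library and the groups overlapped. The log2 fold change of Col5a2 was 0.24 (SE 0.32), -0.03 without control 2 and 0.61 without control 1. Col5a3 was at 92.3, 76.1 and 74.7 CPM in cKO 1 to 3, against 72.3, 85.3 and 90.2 CPM in controls 1 to 3, with a log2 fold change of -0.03 (-0.0044 without control 2), and Col24a1, a low fibrillar chain known from bone, had -0.15 (-0.10 without control 2). Control 2 was the lowest library for 5 of the 7 fibrillar chains, all but Col5a3 and Col24a1. The median log2 fold change of the 7 was 0.30, 0.03 without control 2 and 0.61 without control 1.

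**Figure D2:**
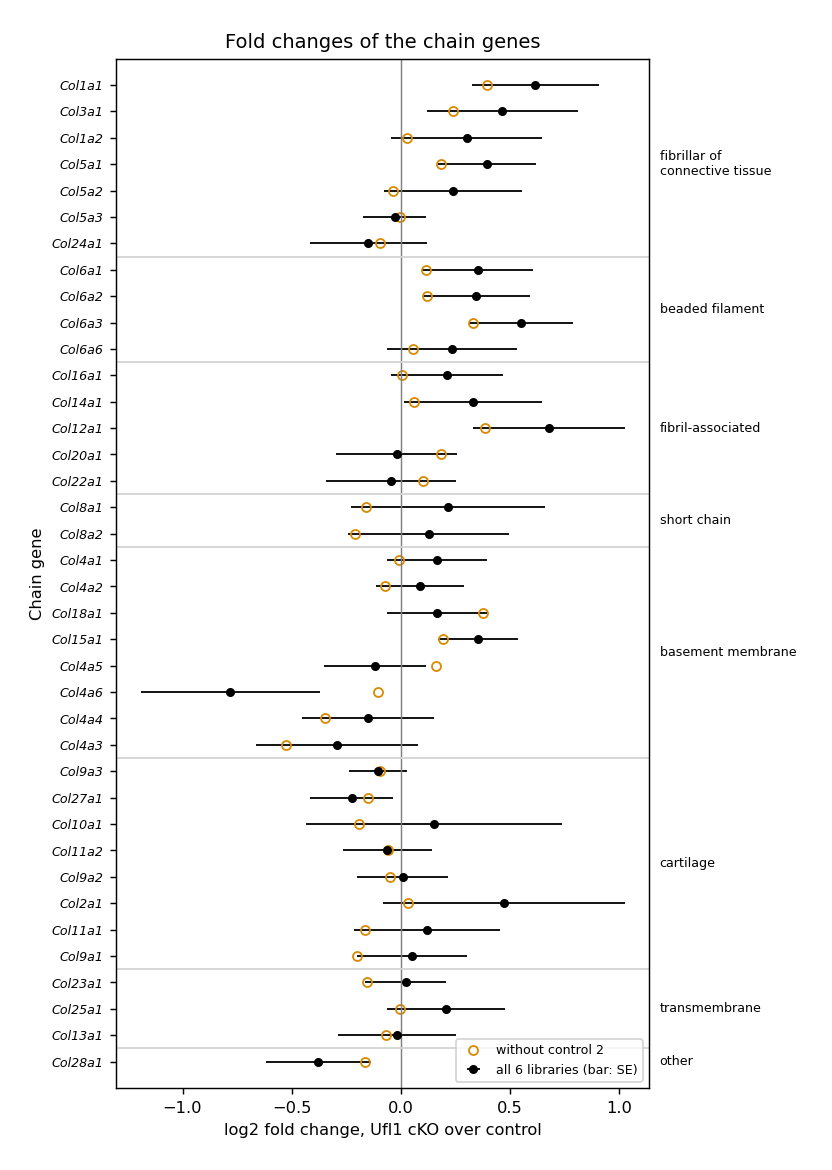
Log2 fold changes of Ufl1 cKO over control for the 38 chain genes, with filled points and SE bars for all 6 libraries and open points without control 2. The open points of the fibrillar and beaded filament chains other than Col5a3 and Col24a1 lie to the left of the filled ones, and that of Col4a6 lies to the right.

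The 3 main beaded filament chains were higher in every cKO library than in every control. Type VI collagen is built from the products of Col6a1, Col6a2 and Col6a3, which in skin come mainly from fibroblasts. Col6a1 was at 1036, 1023 and 956 CPM in cKO 1 to 3, against 902, 508 and 953 CPM in controls 1 to 3. Col6a2 was at 874, 821 and 791 CPM in cKO 1 to 3, against 748, 428 and 778 CPM in controls 1 to 3. Col6a3 was at 806, 749.6 and 688 CPM in cKO 1 to 3, against 607, 343 and 581 CPM in controls 1 to 3. For each of the 3 genes control 2 was far below the rest, while the gap between the lowest cKO library and the highest control was small for Col6a1 and Col6a2. The log2 fold changes were 0.35 (SE 0.25), 0.35 (SE 0.24) and 0.55 (SE 0.24), in that order. The edgeR p of Col6a3 was 0.0485 before and 0.929 after adjustment, and without control 2 it was 0.0650 before adjustment, with a log2 fold change of 0.33. Without control 2 the values were 0.12 for Col6a1 and 0.12 for Col6a2. Col6a1 and Col6a2 are neighbours on chromosome 10, 85161 bases apart and on the same strand, and Col6a3 lies on chromosome 1.

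Other type VI chains were low. Col6a6 was at 9.07, 17.2 and 10.4 CPM in cKO 1 to 3, against 12.5, 7.62 and 11.04 CPM in controls 1 to 3, with cKO 2 the highest library and a log2 fold change of 0.23 (SE 0.30), 0.05 without control 2. It lies on chromosome 9, next to Col6a5 and Col6a4, which were too low for the main test. Col6a5, which is known from skin, had 3, 23 and 38 reads in cKO 1 to 3, against 2, 2 and 7 reads in controls 1 to 3, with cKO 1 among the controls. Col6a4 had 2, 2 and 3 reads in cKO 1 to 3, against 2, 0 and 0 reads in controls 1 to 3. The other 2 untested chains were Col19a1, with 7, 8 and 6 reads in cKO 1 to 3, against 1, 10 and 4 reads in controls 1 to 3, and Col26a1, with 9, 11 and 8 reads in cKO 1 to 3, against 7, 21 and 6 reads in controls 1 to 3.

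Partner chains were compared as ratios of FPKM within each library, which do not depend on the scaling of the library. The ratios were chosen after the counts were seen, 16 in number. Col6a1 over Col6a2 was 2.25, 2.37 and 2.30 in cKO 1 to 3, against 2.29, 2.25 and 2.33 in controls 1 to 3, a narrow range in which control 2 did not differ from the other libraries. Col6a1 over Col6a3 was 3.51, 3.73 and 3.79 in cKO 1 to 3, against 4.06, 4.05 and 4.48 in controls 1 to 3, lower in each cKO library than in each control (difference -0.19 on the log2 scale). Col1a1 over Col1a2, the chains of one molecule, was 2.06, 1.91 and 1.93 in cKO 1 to 3, against 1.43, 1.81 and 1.68 in controls 1 to 3. It was higher in each cKO library than in each control (difference 0.27 on the log2 scale), and control 2 was here the control nearest to the cKO. For these 2 of 16 ratios the groups did not overlap, with p = 0.1 in the two-sided exact permutation test, the smallest possible, and 0.8 after Benjamini-Hochberg adjustment over the 16. Col3a1 over Col1a1 was 0.735, 0.704 and 0.668 in cKO 1 to 3, against 0.891, 0.771 and 0.629 in controls 1 to 3, with controls on both sides of the cKO.

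**Figure D3:**
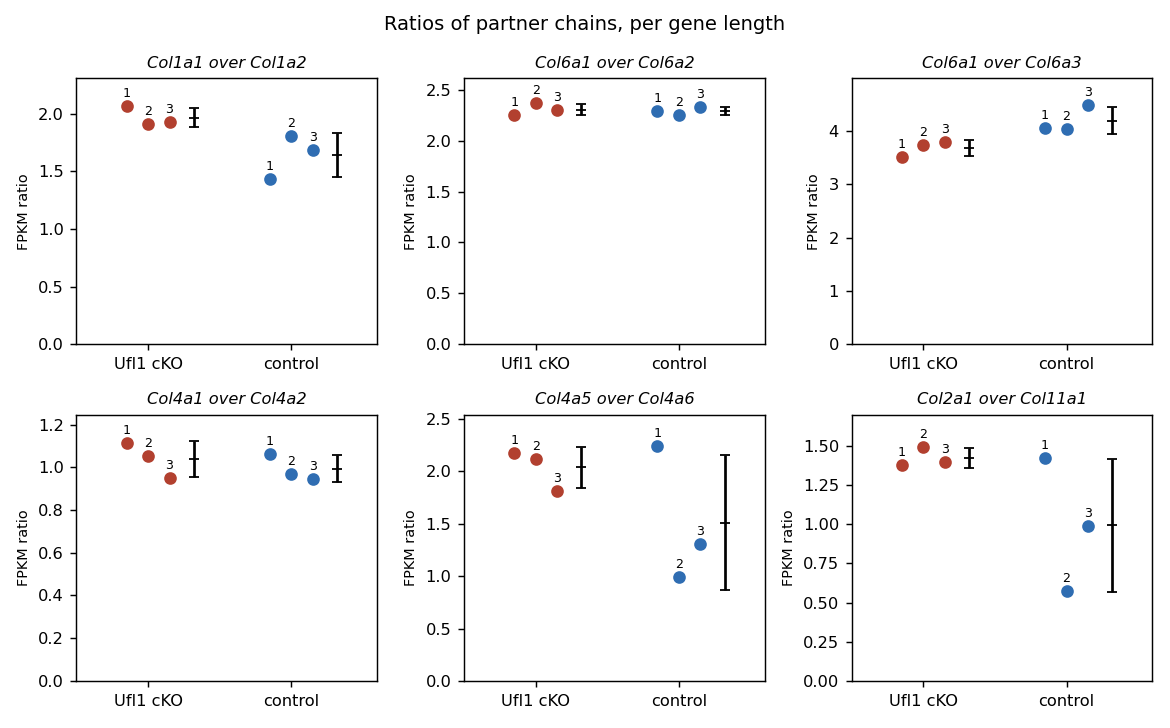
FPKM ratios of 6 pairs of partner chains in each Ufl1 cKO and control library (points, numbered by replicate) with the group mean and SD (bars). Col6a1 over Col6a2 spans 2.25 to 2.37 in all libraries, while Col4a5 over Col4a6 and Col2a1 over Col11a1 are lowest in control 2.

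Fibril-associated chains sit on the surface of fibrils. Col12a1, made by fibroblasts of tissue under load, was at 235, 133 and 126 CPM in cKO 1 to 3, against 129, 57.3 and 123 CPM in controls 1 to 3. The value of cKO 1 was well above the other libraries and that of control 2 well below, with a log2 fold change of 0.68 (SE 0.35) and 0.39 without control 2. Col14a1, a related chain, was at 110.1, 121 and 97.0 CPM in cKO 1 to 3, against 135, 51.0 and 74.9 CPM in controls 1 to 3. Control 1 was its highest library, and its log2 fold change was 0.33 (SE 0.32), 0.06 without control 2 and 0.79 without control 1. Col16a1 was at 239, 292 and 210.2 CPM in cKO 1 to 3, against 198, 148 and 294 CPM in controls 1 to 3. Control 3 and cKO 2 were its highest libraries, and its log2 fold change was 0.21 (SE 0.26) (0.01 without control 2). Col20a1 and Col22a1, of which Col22a1 is known from the junctions of muscle and tendon, were at 4.65 to 13.5 CPM, with log2 fold changes of -0.02 and -0.05, and 0.18 and 0.10 without control 2.

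The short chains of type VIII collagen form open networks and are known from vessel walls and the cornea. Col8a1 was the fourth collagen gene by count and was at 1437, 1687 and 948 CPM in cKO 1 to 3, against 1750.3, 476 and 1278 CPM in controls 1 to 3. Col8a2 was at 165, 219 and 142 CPM in cKO 1 to 3, against 170.0, 76.9 and 236 CPM in controls 1 to 3. Control 2 was the lowest library for both and cKO 3 was the lowest cKO library for both. The log2 fold changes were 0.22 (SE 0.44) and 0.13 (SE 0.37), and -0.16 and -0.21 without control 2.

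The basement membrane chains were divided among themselves. Col4a1 and Col4a2 encode the chains of the common type IV network, present under epithelia and around vessels, fat and muscle cells. Their genes lie head to head on chromosome 8 and share a promoter region, with RefSeq start sites 21 bases apart. The deposited gene bodies overlap by 22 bases on opposite strands, and whether counting used strand is not known here, so reads in that overlap cannot be assigned with certainty. Both promoters are shown because they share letters, on GRCm38.p6 from RefSeq, each 5′ to 3′ on its own strand, with capitals for the 78 bases common to both (chr8:11312777-11312854), which are the reverse complement of each other.
Col4a1, chr8:11312777-11313076, minus strand: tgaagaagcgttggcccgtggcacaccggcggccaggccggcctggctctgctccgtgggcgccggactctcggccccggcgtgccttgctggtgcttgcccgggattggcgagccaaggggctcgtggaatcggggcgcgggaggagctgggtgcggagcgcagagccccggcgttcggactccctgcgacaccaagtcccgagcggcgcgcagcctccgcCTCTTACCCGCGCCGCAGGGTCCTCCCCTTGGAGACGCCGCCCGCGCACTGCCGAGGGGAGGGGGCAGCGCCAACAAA
Col4a2, chr8:11312555-11312854, plus strand: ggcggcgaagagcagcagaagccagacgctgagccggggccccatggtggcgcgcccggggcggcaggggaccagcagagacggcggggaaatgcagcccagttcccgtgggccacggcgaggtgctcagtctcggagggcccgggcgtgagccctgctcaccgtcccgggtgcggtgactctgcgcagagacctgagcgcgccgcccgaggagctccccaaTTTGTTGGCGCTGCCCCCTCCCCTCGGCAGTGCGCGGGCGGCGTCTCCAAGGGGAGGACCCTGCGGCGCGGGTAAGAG
Neither of the 2 windows holds TATAAA, and both hold CCAAT and GGGCGG on one strand or the other.

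Col4a1 was at 354, 278 and 223 CPM in cKO 1 to 3, against 282, 189.9 and 291 CPM in controls 1 to 3. Col4a2 was at 282, 234 and 209 CPM in cKO 1 to 3, against 235, 174 and 273 CPM in controls 1 to 3. The order of the 6 libraries was the same for both, with cKO 1 highest and control 2 lowest, and the groups overlapped. The log2 fold changes were 0.17 (SE 0.23) and 0.09 (SE 0.20), with an edgeR adjusted p of 0.997 for each, and -0.01 and -0.07 without control 2. Their FPKM ratio was 1.11, 1.05 and 0.948 in cKO 1 to 3, against 1.06, 0.969 and 0.945 in controls 1 to 3.

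Col4a5 and Col4a6 encode chains of a second type IV network, which is found in the basement membrane of the epidermis. They too lie head to head, on the X chromosome, with start sites 1343 bases apart. Col4a6 was at 10.2, 11.5 and 11.5 CPM in cKO 1 to 3, against 9.95, 33.3 and 13.8 CPM in controls 1 to 3. Control 2 was well above the other 5 libraries, which lay between 9.95 and 13.8 CPM. In edgeR the log2 fold change of Col4a6 was -0.78 (SE 0.41), adjusted p 0.970, and -0.10 without control 2. Col4a5 was at 18.8, 20.6 and 17.5 CPM in cKO 1 to 3, against 18.8, 27.8 and 15.2 CPM in controls 1 to 3, again highest in control 2, with a log2 fold change of -0.12 (SE 0.23) and 0.16 without control 2. The same library was the highest for Col17a1 and Col7a1, which lie outside the set, were added after their values were seen and encode collagens that anchor keratinocytes to the dermis, at 1214 CPM and 152 CPM, where the other 5 libraries lay at 358 to 605 CPM and 51.6 to 73.3 CPM.

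Col4a3 and Col4a4, chains of a network known from kidney, lie head to head on chromosome 1, 71 bases apart as annotated, and were low in ear skin. Col4a3 was at 5.29, 6.76 and 3.09 CPM in cKO 1 to 3, against 8.28, 4.01 and 6.27 CPM in controls 1 to 3, and Col4a4 at 11.5, 14.4 and 7.95 CPM in cKO 1 to 3, against 16.9, 8.90 and 11.8 CPM in controls 1 to 3. For both, control 1 was the highest library and cKO 3 the lowest, with log2 fold changes of -0.29 (SE 0.37) and -0.15 (SE 0.30), and -0.53 and -0.35 without control 2. Col15a1 and Col18a1 encode the multiplexins, which carry sugar chains and link basement membranes to the stroma below. Col15a1 was at 94.0, 76.9 and 74.4 CPM in cKO 1 to 3, against 73.1, 48.8 and 69.9 CPM in controls 1 to 3. The cKO libraries were above the controls by a small gap to control 1, with a log2 fold change of 0.35 (SE 0.18) and 0.19 without control 2. Col18a1 was at 124, 87.3 and 93.2 CPM in cKO 1 to 3, against 65.0, 115 and 91.3 CPM in controls 1 to 3, with control 2 among the higher libraries, and its log2 fold change was 0.17 (SE 0.23), 0.38 without control 2 and -0.03 without control 1.

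The cartilage chains showed large differences between libraries within each group. Col2a1, the main fibril chain of cartilage, was at 208, 209 and 126 CPM in cKO 1 to 3, against 238, 37.5 and 116 CPM in controls 1 to 3. Control 2 was far below all other libraries, and control 1 was the highest. The log2 fold change was 0.47 (SE 0.55), at an edgeR adjusted p of 0.997, and it was 0.03 without control 2 and 1.23 without control 1. Col10a1, known from enlarged chondrocytes, was at 107, 109.6 and 30.8 CPM in cKO 1 to 3, against 137, 34.4 and 51.3 CPM in controls 1 to 3. Libraries of both groups lay on a low side (cKO 3, control 2 and control 3) and on a high side (cKO 1, cKO 2 and control 1), and the log2 fold change was 0.15 (SE 0.59), -0.19 without control 2. Col11a1, a chain of the type XI fibrils that are copolymers with type II, was at 208, 193 and 124 CPM in cKO 1 to 3, against 231, 90.4 and 162 CPM in controls 1 to 3. It had its highest value in control 1 and its lowest in control 2, with a log2 fold change of 0.12 (SE 0.33) and -0.17 without control 2.

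Of the other cartilage chains, only Col9a1 was lowest in control 2. Col11a2, the second type XI chain, was at 125, 201 and 132 CPM in cKO 1 to 3, against 141, 160.4 and 176 CPM in controls 1 to 3, with cKO 2 and control 3 the highest and a log2 fold change of -0.06 (SE 0.20). Col27a1, a fibrillar chain of cartilage that other tissues also make, was at 308, 453 and 319 CPM in cKO 1 to 3, against 393, 463 and 407 CPM in controls 1 to 3. It was highest in control 2, and its log2 fold change was -0.23 (SE 0.19). The type IX chains, which decorate type II fibrils, were unequal. Col9a3 was at 137, 167 and 136 CPM in cKO 1 to 3, against 154, 159.8 and 159.8 CPM in controls 1 to 3, an even level in all 6 libraries with a log2 fold change of -0.10 (SE 0.13). Col9a2 was at 67.7, 71.1 and 41.1 CPM in cKO 1 to 3, against 61.0, 54.8 and 62.9 CPM in controls 1 to 3, with cKO 3 the lowest, and had 0.01 (SE 0.21), -0.05 without control 2. Col9a1 was at 57.8, 73.9 and 63.0 CPM in cKO 1 to 3, against 71.3, 38.8 and 77.7 CPM in controls 1 to 3, with control 2 the lowest, and had 0.05 (SE 0.25), -0.20 without control 2.

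Levels per length also set the cartilage chains apart. The mean over 6 libraries was 39.3 FPKM for Col9a3, 29.8 FPKM for Col27a1 and 16.8 FPKM for Col2a1, so that transcripts of Col9a3 were above those of Col2a1. By library, Col2a1 over Col11a1 was 1.38, 1.495 and 1.39 in cKO 1 to 3, against 1.42, 0.572 and 0.986 in controls 1 to 3, and Col9a1 over Col9a3 was 0.320, 0.336 and 0.351 in cKO 1 to 3, against 0.352, 0.185 and 0.370 in controls 1 to 3. Control 2 had the lowest value of both ratios. Beside the chains, 11 of the 13 cartilage markers that are not collagens were lowest in control 2, and their summed level was 3663, 3612 and 2153 CPM in cKO 1 to 3, against 3994, 1567 and 3497 CPM in controls 1 to 3. Matn1, the marker that was not tested, had 0, 0 and 0 reads in cKO 1 to 3, against 0, 0 and 2 reads in controls 1 to 3. The part of cartilage content in these values was not tested.

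The transmembrane chains and Col28a1 were low. Col23a1 was at 36.0, 33.8 and 33.3 CPM in cKO 1 to 3, against 37.2, 25.0 and 39.4 CPM in controls 1 to 3, with a log2 fold change of 0.02 (SE 0.19), -0.16 without control 2. Col25a1 and Col13a1, of which Col13a1 is known from the nerve-muscle junction, had log2 fold changes of 0.21 and -0.02 at 2.39 to 13.5 CPM, and -0.0045 and -0.07 without control 2. Col28a1, a chain known from Schwann cells, was at 10.02, 8.31 and 10.6 CPM in cKO 1 to 3, against 12.3, 16.0 and 9.29 CPM in controls 1 to 3, with a log2 fold change of -0.38 (SE 0.24) and -0.16 without control 2. All 9 Schwann cell markers had log2 fold changes below 0, as had 9033 of the 17318 genes tested. In edgeR 4 of the 9 had p under 0.05 before adjustment (1.95% of all genes lower). Without control 2, the highest library for 6 of them, 1 marker was above 0 and 2 were lower at that p (2.53% of all genes lower). With cKO 1 left out 1 of them was lower at that p (2.82% of all genes in either direction). The part of the Schwann cell markers in the value of Col28a1 was not tested. All 9 adipocyte markers were also below 0, with 0 lower at that p in all libraries (1.95% of all genes lower). Without control 2, the lowest library for 7 of them, 6 were lower at that p (2.53% of all genes lower). Their median log2 fold change was -0.32 with all libraries, -0.58 without control 2 and -0.09 without control 3.

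The 3 main classes were then set side by side. The median log2 fold change was 0.30 over 7 fibrillar, -0.01 over 8 basement membrane and 0.03 over 8 cartilage chains, beside -0.01 over all genes. Values above 0 were found for 5 fibrillar, 4 basement membrane and 5 cartilage chains, and without control 2 for 4, 3 and 1 chains of these classes. The 3 basement membrane chains were then Col15a1, Col18a1 and Col4a5, of which Col4a5 was below 0 with all libraries. Without control 2 the medians were 0.03 for the fibrillar, -0.04 for the basement membrane and -0.12 for the cartilage chains, and without control 1 they were, in that order, 0.61, 0.04 and 0.09. The difference between the classes was not tested. With all libraries the medians of the smaller classes were 0.35 over 4 beaded filament, 0.21 over 5 fibril-associated, 0.17 over 2 short and 0.02 over 3 transmembrane chains. Without control 2 they were 0.12 for beaded filament, 0.10 for fibril-associated, -0.18 for short and -0.07 for transmembrane chains.

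The summed levels of the classes ordered the libraries differently. The fibrillar chains summed to 17759, 17453 and 17070.1 CPM in cKO 1 to 3, against 18820.1, 8186 and 11348 CPM in controls 1 to 3. The type VI chains summed to 2724, 2612 and 2445 CPM in cKO 1 to 3, against 2269.6, 1286 and 2324 CPM in controls 1 to 3, with every cKO library above every control. The basement membrane chains summed to 900.0, 729 and 640.1 CPM in cKO 1 to 3, against 708, 602 and 772 CPM in controls 1 to 3, and the cartilage chains to 1218, 1478 and 973 CPM in cKO 1 to 3, against 1427, 1039 and 1212 CPM in controls 1 to 3. In both of these classes the groups overlapped over most of their range. A sum weights chains by their count, so the fibrillar one is mostly Col1a1, Col1a2 and Col3a1.

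**Figure D4:**
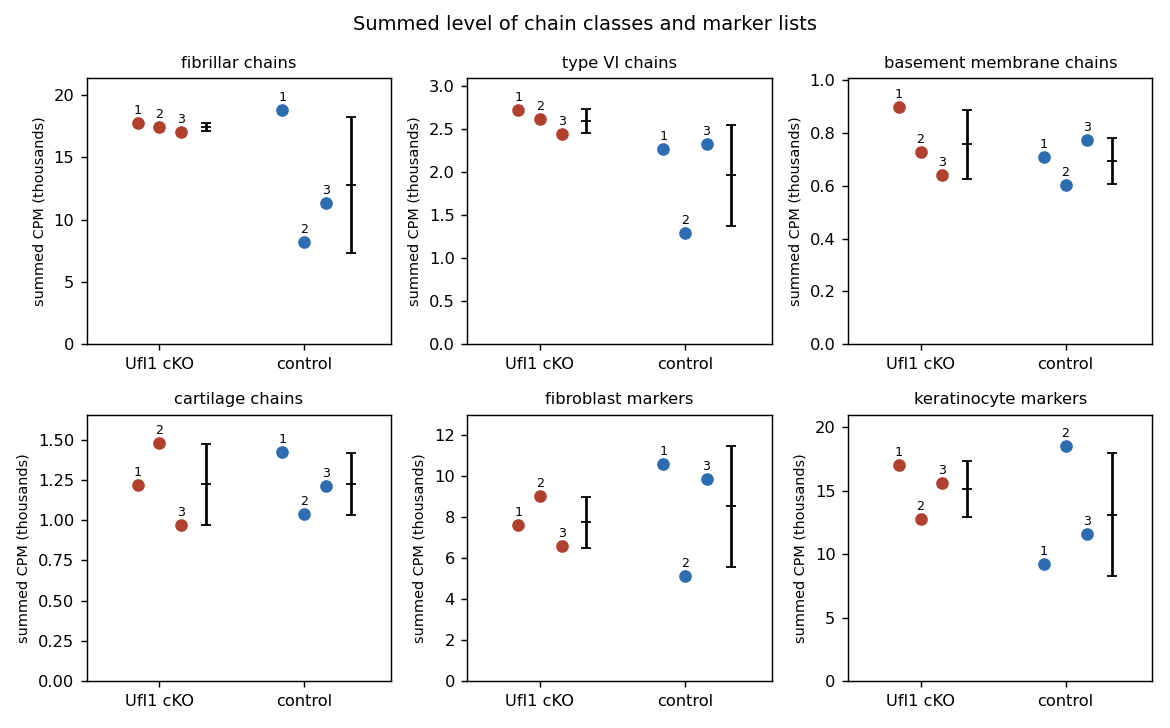
Summed CPM of 4 classes of chain genes and of the fibroblast and keratinocyte marker lists in each Ufl1 cKO and control library (points, numbered by replicate), with the group mean and SD (bars). Control 2 is lowest for the fibrillar and type VI chains and the fibroblast markers and highest for the keratinocyte markers.

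The genes that act on collagen were compared next, 97 of 98 listed genes in 8 lists, of which edgeR called 0 (0.0173% of all genes called) and DESeq2 called 1, P4hb. Before adjustment, 7 of the 97 were higher in the cKO at p under 0.05 (3.38% of all genes) and 0 lower (1.95% of all genes). Without control 2 the numbers were 3 higher (4.36% of all genes) and 1 lower (2.53%). Without control 1 they were 13 and 3 (10.5% of all genes in either direction). Without cKO 1 they were 1 and 0 (2.82% in either direction), and without control 3 they were 4 and 0 (4.24%). The enzymes that hydroxylate and glycosylate the chains in the endoplasmic reticulum had log2 fold changes above 0 in 15 of 15 cases (47.8% of all genes), and in 11 of 15 without control 2 (49.7% of all genes). The median was 0.20 (0.07 without control 2). P4hb, a disulfide isomerase that is also the beta subunit of prolyl 4-hydroxylase, was at 809.7, 773 and 804 CPM in cKO 1 to 3, against 495, 412 and 476 CPM in controls 1 to 3. The groups were far apart, with a log2 fold change of 0.79 (SE 0.16) and 0.71 without control 2. The adjusted p was 0.464 in edgeR and 1.56e-05 in DESeq2, which is the lowest over all settings tried, and the highest was 0.601 in fits on all 6 libraries and 0.99995 with 1 library (cKO 1) left out. Its role is not limited to collagen. Colgalt1 is a galactosyltransferase of collagen, Ppib a prolyl isomerase and Plod3 a lysyl hydroxylase. Their log2 fold changes were 0.30 (SE 0.15), 0.26 (SE 0.13) and 0.28 (SE 0.14), and 0.19, 0.16 and 0.22 without control 2. Each of these 3, named for its small p, had cKO above control in all libraries. With P4hb this held for 4 of the 15 genes (5.73% of all genes in the higher direction). Control 2 was the lowest library for 12 of the 15 (26.9% of all genes).

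Among genes of procollagen folding and export, Serpinh1, the collagen chaperone HSP47, was at 344, 283 and 247 CPM in cKO 1 to 3, against 219, 175 and 206 CPM in controls 1 to 3. All cKO libraries were above all controls, and the log2 fold change was 0.54 (SE 0.17), or 0.46 without control 2. In edgeR p was 0.0130 before and 0.811 after adjustment. Sec24d, a coat protein of the vesicles that leave the endoplasmic reticulum, had 0.40 (SE 0.25), 0.14 without control 2. The median of the 10 genes was 0.14 (-0.04 without control 2). Genes of propeptide cleavage and crosslinking had a median of 0.12 over 12 genes (-0.08 without control 2) and 0 with p under 0.05 before adjustment. Lox, the lysyl oxidase that starts crosslinks, was at 349.7, 284 and 242 CPM in cKO 1 to 3, against 364, 153 and 253 CPM in controls 1 to 3. Its groups overlapped, with a log2 fold change of 0.18 (SE 0.30), -0.08 without control 2. Pcolce, an enhancer of propeptide removal, had 0.34 (SE 0.25), and Loxl1, a lysyl oxidase of elastic fibres, had 0.32 (SE 0.26), with 0.10 and 0.06 without control 2.

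For fibril-binding proteoglycans and partners the median log2 fold change was 0.19 over 15 genes, -0.16 without control 2, which was the lowest library for 14 of them. Dcn, decorin, which coats type I fibrils, was at 4009, 4393 and 3455 CPM in cKO 1 to 3, against 6375, 1695 and 4438 CPM in controls 1 to 3. Control 1 was the highest and control 2 the lowest, and the log2 fold change was -0.08 (SE 0.43), -0.45 without control 2 and 0.36 without control 1. Fn1, Sparc and Bgn, matrix partners of collagen made by fibroblasts, had 0.49 (SE 0.36), 0.33 (SE 0.33) and 0.39 (SE 0.41), and 0.17, 0.06 and 0.03 without control 2. The basement membrane partners, laminins, nidogens and perlecan among them, had a median of 0.14 (0.01 without control 2). Lama5, the laminin chain of the epidermal membrane, was at 75.1, 77.9 and 73.0 CPM in cKO 1 to 3, against 54.9, 166 and 94.1 CPM in controls 1 to 3, highest in control 2 as Col4a6 was, with a log2 fold change of -0.48 (SE 0.34), 0.01 without control 2. Lama4, of vessels, had 0.25 (SE 0.17), 0.11 without control 2.

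Genes of collagen breakdown, 11 in number, held 5 of the 7 genes with p under 0.05 before adjustment (3.38% of all genes higher). Control 2 was the lowest library for all 11 (26.9% of all genes). Without control 2, 1 of the 11 was higher at that p (4.36% of all genes), and 5 had log2 fold changes above 0, against 10 with all libraries. Mmp13, a collagenase, was at 10.1, 3.88 and 6.96 CPM in cKO 1 to 3, against 4.05, 0.206 and 0.849 CPM in controls 1 to 3. Control 1 lay just above cKO 2, and the log2 fold change was 2.06 (SE 0.84), 1.53 without control 2 and 3.69 without control 1. Mmp3, stromelysin, was at 118, 48.9 and 50.2 CPM in cKO 1 to 3, against 44.7, 28.5 and 32.6 CPM in controls 1 to 3, and Timp1, a protease inhibitor, at 81.4, 14.6 and 14.9 CPM in cKO 1 to 3, against 14.2, 7.26 and 10.7 CPM in controls 1 to 3. Mmp9, a gelatinase, was at 52.3, 8.37 and 6.43 CPM in cKO 1 to 3, against 7.74, 2.93 and 5.05 CPM in controls 1 to 3. For these 3 genes cKO 1 was far above every other library. Mmp8, the neutrophil collagenase, was low, at 0.721 to 1.56 CPM in the cKO and 0.103 to 0.476 CPM in controls. The log2 fold changes were 1.04 (SE 0.36) for Mmp3, 1.79 (SE 0.67) for Timp1, 2.10 (SE 0.80) for Mmp9 and 1.88 (SE 0.59) for Mmp8, each with an edgeR adjusted p of at least 0.811, and without cKO 1 they were 0.49, 0.46, 0.50 and 1.49. Over the whole list the log2 fold changes had a median of 0.19 (-0.09 without control 2 and 0.47 without control 1).

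Receptors of collagen had a median of 0.03 over 9 genes (-0.02 without control 2), with Ddr1, the receptor of epithelial cells, at -0.30 (SE 0.28) and 0.02 without control 2. Ligands and targets of TGF-beta, a growth factor that induces collagen genes in fibroblasts, had a median of 0.11 over 12 genes (-0.08 without control 2) and 0 with p under 0.05 before adjustment. Ltbp2, a matrix protein of elastic fibres, had 0.47 (SE 0.31) and 0.16 without control 2.

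Markers of cells that make collagen gave these medians of log2 fold change, with all libraries and without control 2. They were 0.18 and -0.14 for fibroblasts, 0.03 and -0.16 for cartilage, 0.01 and -0.09 for endothelium, and -0.12 and -0.15 for mural cells. They were -0.32 and -0.58 for adipocytes, -0.10 and -0.19 for skeletal muscle, and -0.51 and -0.34 for Schwann cells. They were 0.22 and 0.37 for keratinocytes, -0.49 and -0.22 for hair follicles, and -0.12 and -0.34 for dermal papilla and sheath. Without control 2 the median was -0.14 for the fibroblast markers and 0.03 for the fibrillar chains. With all libraries these medians were 0.18 and 0.30, and without control 1 they were 0.39 and 0.61. The difference between the markers and the chains was not tested.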

How the data were processed

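RNA from ear skin was sequenced in 3 Ufl1 cKO and 3 control libraries, grouped by their titles. The submitters' processing notes name HISAT2, HTSeq and mm10, with the strand setting not given in the sources used here. Per the file headers, the authors' table holds counts per gene as whole numbers, FPKM per gene, a normalized mean signal per group, log2 fold changes and p-values. Here the counts were scaled by TMM and tested in edgeR 4.0.16 under R 4.3.3 (quasi-likelihood, robust, filterByExpr). P-values were adjusted by Benjamini-Hochberg over 17318 genes, with 0.05 as threshold. A standard error was obtained by dividing the log2 fold change by the square root of F. FPKM served for ratios between chains and as an alternative (limma 3.58.1 on log2 values). The depth, at least 17256339 counts, limits mainly the chains with few reads. The members, classes and lists were chosen with earlier results of these data known. Values in every library were to be given for 12 listed chains and the 12 others with the smallest p, and further chains were added after their values were seen. Of the other lists up to 4 genes with the smallest p were named, and always Serpinh1, P4hb, Lox, Dcn and Mmp13, and 1 gene so chosen is not reported here. No pair of libraries was alike within sampling noise (chi-square per degree of freedom 17.9 or more). The tests were first tried on simulated counts. Alternatives were other scalings and filters, DESeq2 1.42.0, a replicate block, limma-voom, also with quality weights, FPKM, and leaving out each library in turn.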

Additional observations from a re-analysis of the deposited data

How the results depend on the processing

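The chains called higher or lower numbered 0 under every alternative run. The number of chains at an unadjusted p under 0.05, 1 in the main test, was 0 with upper-quartile factors (5.49% of all genes under that setting), 3 with no filter beyond 1 count (4.17%), 2 with DESeq2 (5.85%), 2 with limma-voom (5.14%), 5 with quality weights in limma-voom (15.9%), and 2 on log2(FPKM + 1) (4.99%) as on log2(FPKM + 0.1) (4.95%). With 1 library left out it ran from 0 to 9, and the share of all genes from 2.82% to 10.5%. Over all genes, 3 calls in the main test became 25 with no filter, 91 with DESeq2, 0 with limma-voom, 26 with quality weights, 0 on either FPKM scale, and 0 to 4 with 1 library left out. Of the pathway genes, P4hb alone was called, by DESeq2 (1 gene) and limma-voom with quality weights (1 gene). The median log2 fold change of the fibrillar chains ran from 0.030 without control 2 to 0.61 without control 1, and the number of chains without overlap, 6 in the main test, from 7 to 12 with 1 library left out (18.4% to 31.6% of the chains, against 14.7% to 28.8% of all genes). The alternatives for the non-overlap count and the chain ratios were chosen after seeing the data, and dropping a library makes non-overlap easier by construction. With 1 library left out the log2 difference ran from 0.17 to 0.34 for Col1a1 over Col1a2 and from -0.21 to -0.14 for Col6a1 over Col6a3. The cause of the other shifts was not tested.

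Whether the replicate numbers pair the samples cannot be decided from 3 correlations. Deviations from the group means correlated with r of 0.216, -0.0431 and -0.038 for the 3 numbers. For samples of unlike number r ran from -0.161 to 0.185. With the replicate number as a block, edgeR called 12 genes in all and 0 chains, with 2 chains at an unadjusted p under 0.05 (4.9% of all genes), and the log2 fold change was -0.027 for Col9a2 and 0.096 for Dcn, each opposite in sign to the main test.

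Of the 38 chains, 17 kept their direction under every alternative, 36 under the other scalings, 18 with any 1 library left out and 24 without control 2. With quality weights in limma-voom the log2 fold changes that turned were -0.038 for Col4a2, 0.21 for Col4a5, -0.013 for Col9a2, -0.20 for Col9a1, -0.11 for Col16a1, 0.26 for Col22a1, -0.25 for Col8a2, -0.11 for Col23a1 and -0.078 for Col25a1. Col9a2 was -0.025 with upper-quartile factors, -0.013 with total counts, -0.031 with limma-voom, -0.023 on log2(FPKM + 1) and -0.026 on log2(FPKM + 0.1), and Col23a1 was -0.010 with upper-quartile factors. Dcn was 0.11 with limma-voom and 0.12 on both FPKM scales. Leaving out 1 library at a time turned 20 chains and 4 pathway genes. Among basement membrane chains the ranges were -0.018 to 0.31 for Col4a1, -0.072 to 0.24 for Col4a2, -0.028 to 0.38 for Col18a1, -0.29 to 0.16 for Col4a5 and -0.37 to 0.11 for Col4a4. Among cartilage chains they were -0.19 to 0.94 for Col10a1, -0.31 to 0.066 for Col11a2, -0.13 to 0.22 for Col9a2, -0.17 to 0.47 for Col11a1 and -0.20 to 0.24 for Col9a1. Among the rest they were -0.093 to 0.41 for Col6a6, -0.26 to 0.18 for Col20a1, -0.30 to 0.14 for Col22a1, -0.034 to 0.61 for Col5a2, -0.13 to 0.040 for Col5a3, -0.16 to 0.63 for Col8a1, -0.21 to 0.51 for Col8a2, -0.16 to 0.15 for Col23a1, -0.0045 to 0.46 for Col25a1 and -0.11 to 0.12 for Col13a1. For pathway genes they were -0.082 to 0.52 for Lox, -0.45 to 0.36 for Dcn, -0.79 to 0.014 for Lama5 and -0.58 to 0.023 for Ddr1.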
